A study of Gallus gallus with 3 samples.

Results

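CCPG1 and STBD1 are 2 selective autophagy receptors, picked from 3870 named genes because their signal was lower on both peptide arrays of this series than on the control array. They were found through the RefSeq accession of their probes, and each had 1 probe, 2 of 4000 named probes in all. The ratios to the control array chose both genes, so those ratios are given as a description with no test. Cells of the chicken B lymphoma line DT40 were exposed for 4 h to BP5 at 0.02 µg/ml or to BSP-II at 2 µg/ml, both of them peptides derived from the bursa, or were left untreated (0 µg/ml, the control). The submitters speak of several experiments and cell populations, and whether an array holds RNA of 1 culture or of several is not stated. Total RNA was labelled with Cy3 and hybridised to 1-colour Agilent chicken arrays with 1 array per group. All groups share the same line and medium, with bovine and avian serum, and no genotype or transgene differs between them.

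With 1 array per group no difference below has a replicate check, and the number of arrays limits the precision. The 3 arrays lay on 1 slide, but the control array was read in a different scan from both peptide arrays, so scan and peptide cannot be told apart in any comparison with the control. Between 38.0% and 46.6% of 42034 probes were well above background per array. Of 3870 named genes 2560 were well above background on all 3 arrays, a larger share than that of the B cell or other markers below. Of 11 named B cell markers, 6 were well above background on all 3 arrays, among them JCHAIN, which encodes the joining chain of polymeric antibodies, and POU2AF1, a coactivator of B cell transcription. CD79B, PAX5, CD40 and EBF1, which also define B cells, failed to rise well above background on any of the 3 arrays. Of 21 named markers of other lineages 8 were well above background on all 3 arrays. The brightest was the T cell marker CD3D, which read 2192 with BP5, 2540 with BSP-II and 3703 in the control. CD3E, CD4, CD8A, CD5 and CD28, also T cell markers, failed to rise well above background on any of the 3 arrays. CD3D read above POU2AF1, at 1014, 866 and 1317 on the same arrays, and below JCHAIN, at 31762, 30696 and 42411. Whether signals of different probes rank their transcripts was not tested. Of the 8, CLDN3 was past 2-fold against the control with BP5 (log2 ratio 1.23) but not with BSP-II (0.89). Over all measured genes 2.91% were higher with BP5, so 1 among 8 says little about these markers. TUBB1, of thrombocytes, had log2 ratios of -0.995 with BP5 and -0.67 with BSP-II, short of 2-fold. After normexp background correction CLDN3 was at 0.86 with BP5, no longer past 2-fold. With the local background alone subtracted TUBB1 was past it with BP5 (-1.12). Their part in the results below was not tested.

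Selective autophagy brings a chosen cargo to the lysosome through a receptor that binds the cargo at 1 end and proteins of the ATG8 family, on the growing autophagosome, at the other. In mammalian cells CCPG1 is a membrane protein of the endoplasmic reticulum (ER) that carries pieces of the ER into autophagosomes. It also binds RB1CC1, a scaffold of the initiating kinase complex, and is induced by ER stress. STBD1 in mammals is anchored in the ER membrane, binds glycogen through a starch-binding domain and meets the ATG8 protein GABARAPL1. It is held to route glycogen to lysosomes. RB1CC1 and GABARAPL1 had no named probe here, so neither of these binding partners was analysed.

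CCPG1 had a processed signal of 234.0 on the BP5 array, 201.1 on the BSP-II array and 1473 on the control array. Both peptide arrays read low and close to each other, and the control array read high. Scaled to the 75th percentile of each array, CCPG1 was 4.39-fold lower with BP5 than in the control (log2 ratio -2.14 ± 0.21) and 4.42-fold lower with BSP-II (-2.14 ± 0.21). The ± combines the error that the scanner software gives for each of the 2 spots, and holds no error from cell culture or labelling. In RNA of a whole culture, fewer cells that carry a transcript and less of it per cell cannot be told apart.

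The CCPG1 readings lay well clear of the detection floor, taken as the dimmest probe called well above background on each array. They were 4.77 times that floor on the BP5 array, 5.49 times on the BSP-II array and 48.8 times on the control array. The spot was neither saturated nor marked as an outlier on any array. Before any background was subtracted, the median pixel of the CCPG1 spot read 350.5 with BP5, 307.0 with BSP-II and 1563 in the control, against local backgrounds of 59.0, 55.0 and 41.5 on the same arrays. Before subtraction, too, both peptide arrays read low. These readings are from the spot that chose the gene and are not scaled between arrays. The control array was brighter in general, with a 75th percentile of processed signal of 262.6, against 183.3 with BP5 and 158.5 with BSP-II.

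STBD1 read 49.95 on the BP5 array, 68.8 on the BSP-II array and 472.6 on the control array. As with CCPG1, both peptide arrays were low and the control array was high. STBD1 was 6.60-fold lower with BP5 than in the control (log2 ratio -2.72 ± 0.35) and 4.15-fold lower with BSP-II (-2.05 ± 0.26). On the BP5 array it stood at the edge of detection, at 1.02 times the floor, against 1.88 times on the BSP-II array and 15.6 times on the control array. Given its control signal and that floor, the lowest ratio that could have been measured for STBD1 with BP5 was -2.75, and with BSP-II it was -2.96. For CCPG1 the same limits were -4.39 with BP5 and -4.60 with BSP-II, far below its ratios.

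The median pixel of the STBD1 spot read 148.5 with BP5, 168.0 with BSP-II and 573.0 in the control, with local backgrounds of 47, 53 and 44 on the same arrays. Feature Extraction took off more than the local background, so the size of the STBD1 ratio depended on the subtraction. With the local background alone subtracted, STBD1 was at -2.01 with BP5 (4.03-fold lower) and -1.66 with BSP-II (3.15-fold lower). With normexp, which models background and signal together and adds an offset of 50, it was at -1.57 (2.96-fold) and -1.27 (2.41-fold). CCPG1 was at -2.01 and -2.05 with the local background alone and at -1.53 (2.88-fold) and -1.56 (2.95-fold) with normexp. On these scales both genes were still past 2-fold lower with both peptides.

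**Figure D1:**
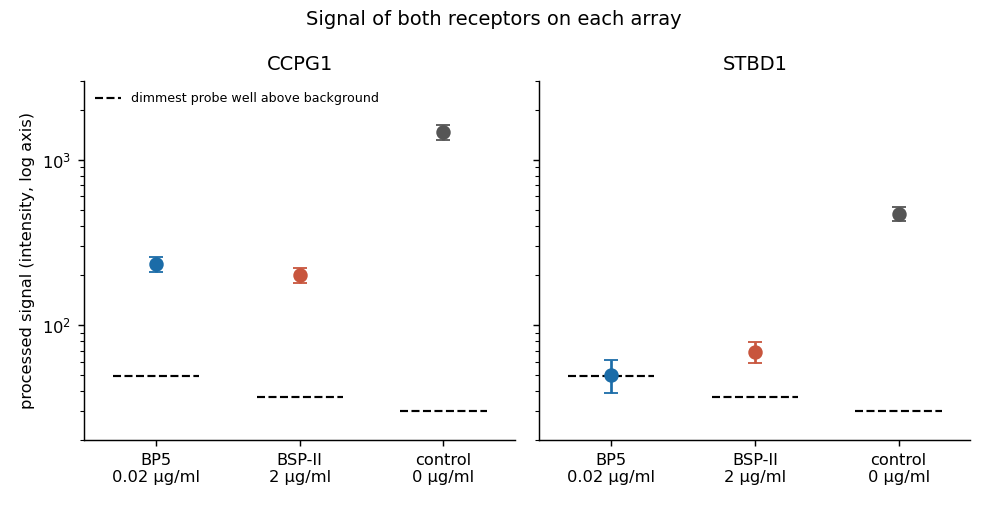
Processed signal (intensity, log axis) of CCPG1 and STBD1 on the BP5, BSP-II and control arrays, 1 array each. Points are single spots, bars are the scanner software's error, and dashed lines mark the dimmest probe called well above background on that array. STBD1 on the BP5 array (49.95) lies on its line, and both genes lie far above it on the control array.

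A named gene counted as lower or higher at 2-fold or more, with all its measured probes of 1 sign. By this rule 96 of 2578 genes measured on both arrays were lower with BP5 (3.72%) and 54 of 2615 were lower with BSP-II (2.07%). Of 2560 genes measured on all 3 arrays, 37 were lower with both (1.45%), and CCPG1 and STBD1 belong to these by choice. At the other end 75 genes were higher with BP5 (2.91%) and 74 with BSP-II (2.83%), so 43.9% and 57.8% of the genes past 2-fold were higher. With the percentile taken over detected probes alone (those well above background on each of the 3 arrays), 97 genes were higher and 73 lower with BP5, which makes 57.1% higher. The middle 90% of measured genes had log2 ratios from -0.83 to 0.78 with BP5 and from -0.69 to 0.82 with BSP-II. STBD1 had the 4th lowest ratio of all measured genes with BP5 and the 8th lowest with BSP-II, and CCPG1 the 13th and the 6th lowest. Genes not well above background on a peptide array have no rank here, however low they read. With no filter on dim probes, 177 genes were lower with BP5 and 124 with BSP-II.

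**Figure D2:**
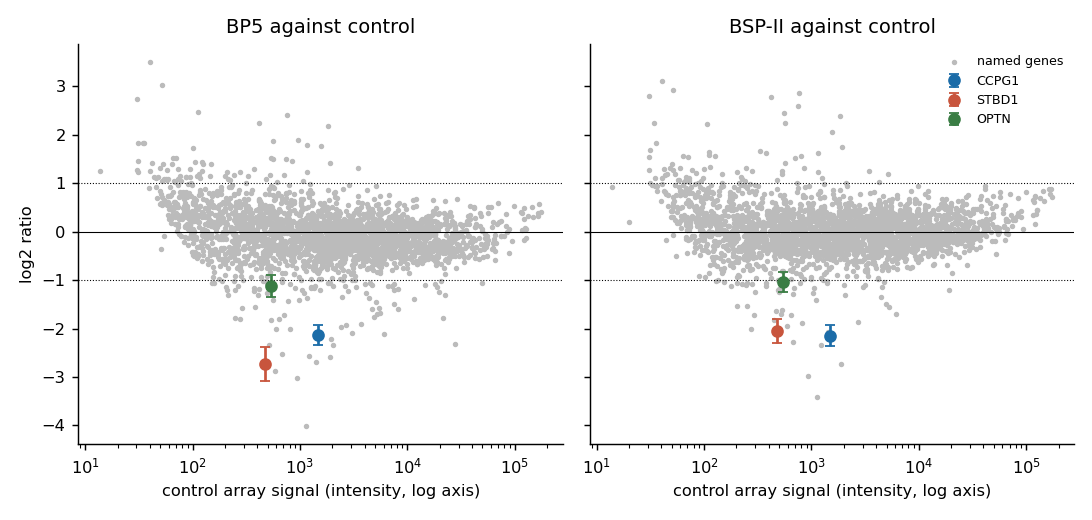
Log2 ratio to the control array against the control array's signal (intensity, log axis, mean over a gene's probes) for BP5 (left) and BSP-II (right). Grey points are named genes measured on both arrays, coloured points are CCPG1, STBD1 and OPTN with the scanner software's error, and dotted lines mark 2-fold. CCPG1 and STBD1 lie below -2 in both panels, and the spread of ratios widens toward dim genes.

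Dim probes scatter more than bright ones, so each receptor was also set among probes of like control signal (within 0.5 log2 units). Of 1866 such probes around CCPG1, 90% had ratios from -0.92 to 0.67 with BP5, and 21 (1.13%) were as low as CCPG1. With BSP-II, 90% of them lay between -0.79 and 0.78, and 13 (0.697%) were as low. Around STBD1, 90% of 2164 probes lay between -1.04 and 0.88 with BP5, and 3 (0.139%) were as low. With BSP-II, 90% of 2171 probes lay between -0.98 and 0.93, and 17 (0.783%) were as low. Only probes well above background on both arrays were counted. Probes of like control signal that were not so on the peptide array were left out. STBD1 with BP5 (-2.72) lay close to the lowest ratio measurable at its signal (-2.75), so this filter limited how many probes could be as low. Both genes were also chosen for low ratios, so small shares are no support. Probes of 1 array are not replicates, and these shares describe where both genes stand on these arrays.

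The low ratios of CCPG1 were larger in size after the neighbouring probes on the slide were taken off. Those of STBD1 changed by less than the scanner error. The CCPG1 spot lay in row 125 and column 43, and the STBD1 spot in row 481 and column 37, of 532 rows and 85 columns, so neither was at an edge. The neighbours of CCPG1 within 5 rows and 5 columns had a median log2 ratio of 0.35 with BP5 (44 probes) and 0.24 with BSP-II (48 probes), opposite in sign to CCPG1 itself. Those of STBD1 had medians of 0.02 (52 probes) and 0.14 (56 probes). After subtraction of these medians CCPG1 was at -2.49 with BP5 and -2.38 with BSP-II, and STBD1 at -2.74 and -2.19.

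The peptides can also be set side by side, a comparison in which both arrays came from the same scan. The choice of genes did not use this ratio, but it used both peptide signals. Both had to be low, so the ratio is not independent of the choice and likeness of the peptides is no support. The doses differed (0.02 and 2 µg/ml), so peptide and dose cannot be told apart. For CCPG1 the log2 ratio of BP5 over BSP-II was 0.01 ± 0.22, less than the scanner error. STBD1 was lower with BP5 than with BSP-II by 1.59-fold (-0.67 ± 0.38), short of 2-fold, and 98 of 2569 measured genes were as low, itself included. The median over these genes was -0.11. Under normexp the STBD1 ratio was -0.30 and with the local background alone subtracted it was -0.36. The scanner error of 0.38 belongs to the processed signal, and no error was computed on those other scales. Past 2-fold in this comparison were 37 genes lower with BP5 (1.44%) and 3 higher (0.117%).

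Among the other selective autophagy receptors, 14 of 28 in the list had a named probe and 13 were measured on all 3 arrays. With CCPG1 and STBD1 set aside, the remaining 11 had a median log2 ratio of -0.12 with BP5, where all genes had -0.08, and of 0.11 with BSP-II, where all genes had 0.02. OPTN (optineurin), which ties ubiquitin-marked mitochondria and bacteria to autophagosomes, was the only 1 of the 11 past 2-fold. Over all measured genes 3.72% were lower with BP5 and 2.07% with BSP-II, so a count of 1 among 11 says little about the list. Its signal was 173.6 with BP5, 159.4 with BSP-II and 541.9 in the control, low on both peptide arrays. OPTN was 2.18-fold lower with BP5 (-1.12 ± 0.22) and 2.05-fold lower with BSP-II (-1.04 ± 0.22), just inside the limit. It was no longer past 2-fold after normexp (-0.84 and -0.73) or after subtraction of the neighbouring probes (-0.80 and -0.86).

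The next lowest ratio with BP5 was that of YIPF4, a receptor for Golgi membranes, which read 546.2 with BP5, 722.9 with BSP-II and 1359 in the control (log2 ratios -0.80 with BP5, short of 2-fold, and -0.18 with BSP-II, less than the scanner error of 0.20). YIPF3, its partner in that role, was at -0.41 with BP5 and -0.09 with BSP-II. CALCOCO2 (NDP52), a receptor for bacteria and mitochondria, was at -0.30 and -0.32. These genes were measured lower on 1 or both peptide arrays but by less than 2-fold.

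Of the other receptors of the ER, SEC62, a subunit of the protein translocation machinery that also acts in recovery from ER stress, read 1552 with BP5, 1095 with BSP-II and 1603 in the control. Its log2 ratios were 0.47 ± 0.20 and 0.18 ± 0.20, so its peptide arrays were not low as those of CCPG1 were. CDK5RAP3, which serves ER autophagy at stalled ribosomes, was at -0.16 with BP5 and 0.16 with BSP-II. NCOA4, the receptor for the iron store ferritin, had the highest ratios of the list, 0.90 ± 0.21 with BP5 and 0.45 ± 0.21 with BSP-II, neither past 2-fold.

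The receptors of mitochondria BNIP3L (0.05 and 0.11) and PHB2 (-0.12 and 0.44) and the ubiquitin-binding adaptor TOLLIP (-0.09 and -0.26) were within 2-fold of the control with BP5 and BSP-II, as was NUFIP1, a receptor for ribosomes (0.40 and 0.18). BCL2L13, another receptor of mitochondria, read 12.3 with BP5, 31.1 with BSP-II and 39.9 in the control. The control array was the only 1 where it was well above background, and so near the floor that no fold can be given.

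**Figure D3:**
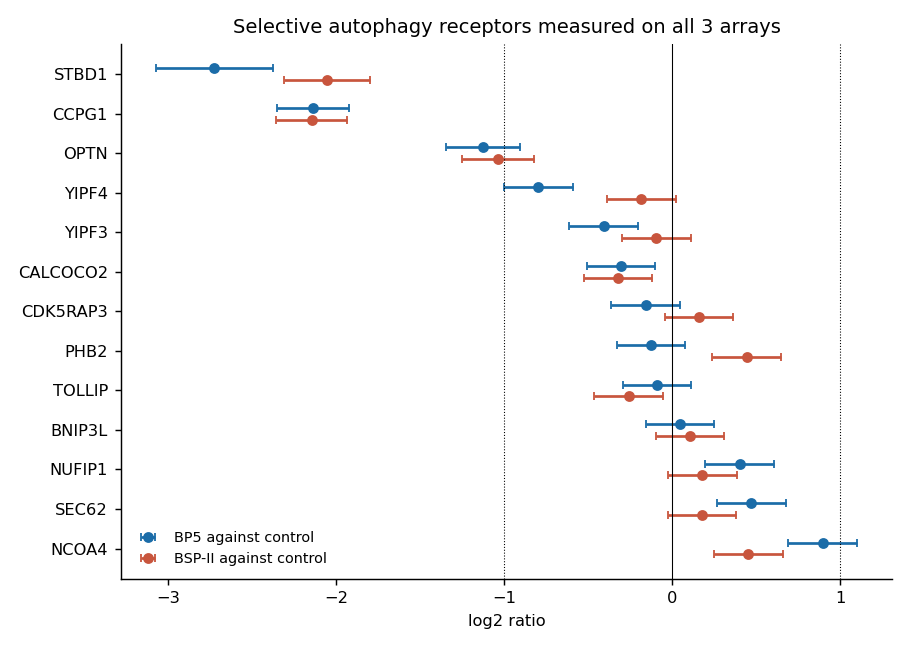
Log2 ratio to the control array of the 13 selective autophagy receptors measured on all 3 arrays, with BP5 (blue) and BSP-II (red). Bars are the scanner software's error and dotted lines mark 2-fold. STBD1, CCPG1 and OPTN lie below -1 with both peptides and the other 10 lie between -0.80 and 0.90.

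The lists that follow hold the machinery to which these receptors hand their cargo, and then glycogen and ER stress genes. Over all measured genes 3.72% were lower and 2.91% higher with BP5, and 2.07% and 2.83% with BSP-II, so in lists of 5 to 16 measured genes a count of 0 or 1 past 2-fold is near the share over all genes and says little about the list. Of 17 ATG8 proteins and conjugation enzymes 5 were measured and 0 were past 2-fold, with medians of 0.10 with BP5 and 0.09 with BSP-II, where all genes had -0.08 and 0.02. The ATG8 protein MAP1LC3B (LC3B) read 48580 with BP5, 48498 with BSP-II and 74298 in the control, which after scaling left it at -0.09 and 0.11. The ATG8 proteases ATG4B (0.16 and 0.44) and ATG4C (-0.53 and -0.39) had ratios of opposite sign, and ATG5 and ATG7, of the conjugation system, lay between 0.08 and 0.35.

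Of 23 genes of autophagy initiation and membrane supply 8 were measured, with medians of -0.22 with BP5 and -0.14 with BSP-II and 0 past 2-fold, a count near the share over all genes. VMP1, an ER protein needed for autophagosome growth, was at -0.20 and 0.04. The phosphoinositide-binding proteins WIPI2 (0.01 and 0.11) and WDR45B (-0.75 and -0.43) differed, and the second was the lowest of this list.

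Of 41 genes of autophagosome fusion and the lysosome 14 were measured, 0 past 2-fold (all genes with BP5, 3.72% lower and 2.91% higher, and with BSP-II, 2.07% and 2.83%), with medians of 0.18 with BP5 and 0.23 with BSP-II. The lysosomal hydrolases CTSA (0.36 and 0.71) and CTSB (0.38 and 0.60) lay above 0 with both peptides. NPC2, which carries cholesterol out of lysosomes, was at -0.19 and 0.15. TFEB, the transcription factor that drives lysosomal genes, and the fusion protein STX17 failed to rise well above background on any of the 3 arrays.

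STBD1 acts on glycogen, and 11 of 30 genes of glycogen metabolism were measured, with medians of -0.18 with BP5 and -0.04 with BSP-II. PHKB, a regulatory subunit of phosphorylase kinase, which switches on glycogen breakdown, was the only 1 past 2-fold. Over all measured genes 3.72% were lower with BP5 and 2.07% with BSP-II, so 1 among 11 says little about the list. PHKB read 1229 with BP5, 880.2 with BSP-II and 3130 in the control. PHKB was 1.78-fold lower with BP5 (-0.83 ± 0.20) and 2.15-fold lower with BSP-II (-1.10 ± 0.20), and was not past 2-fold with BSP-II after normexp (-0.76) or after subtraction of the neighbouring probes (-0.72). The phosphatase subunit PPP1CC (-0.15 and -0.03), the kinase subunit PHKG1 (-0.39 and 0.06) and UGP2, which makes UDP-glucose for glycogen (0.26 and 0.46), were within 2-fold. GYG1, the protein primer of glycogen, named here after its values were seen, was at -0.70 and -0.75.

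CCPG1 is known in mammals as a gene that ER stress induces, and 16 of 40 genes of the unfolded protein response were measured, with 0 past 2-fold, again near the share over all genes (3.72% lower and 2.91% higher with BP5, 2.07% and 2.83% with BSP-II). Their medians were -0.16 with BP5 and -0.23 with BSP-II, where all genes had -0.08 and 0.02. Of the 16, 9 were below 0 with BP5 and 11 with BSP-II. XBP1, a transcription factor of this response, read 40708 with BP5, 48466 with BSP-II and 41562 in the control, with ratios of 0.49 ± 0.20 and 0.95 ± 0.20, the second just short of 2-fold. DERL1 (-0.21 and 0.00) and SELENOS (-0.19 and -0.29), both of ER-associated degradation, were near 0. The ER chaperone HSPA5 (0.17 and -0.17) and the transcription factor ATF4 (0.14 and 0.32), named after their values were seen, were within 2-fold as well. The lowest of the list, also named after their values were seen, were HSP90B1 with BP5 (-0.62) and PDIA4 with BSP-II (-0.59).

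**Figure D4:**
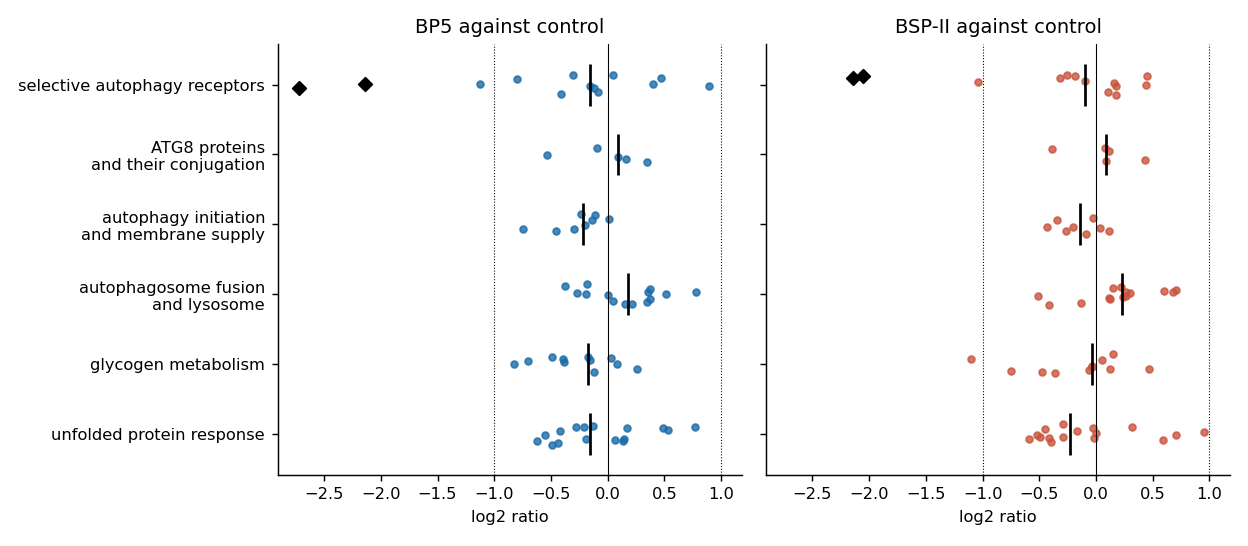
Log2 ratio to the control array of every measured gene of 6 lists, with BP5 (left) and BSP-II (right). Points are genes, vertical bars are list medians, black diamonds are CCPG1 and STBD1, and dotted lines mark 2-fold. Apart from CCPG1 and STBD1, OPTN with both peptides and PHKB with BSP-II are the points below -1.

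The genes with the pattern most like that of each receptor were taken by the distance between their pairs of log2 ratios to the control (BP5 and BSP-II), over 3 arrays and 2560 genes. Both ratios share the control array. Nearest to CCPG1 were MARCH5, a ubiquitin ligase of mitochondria (distance 0.29), PMM2, an enzyme of glycosylation (0.34), CHAF1B, a histone chaperone subunit (0.41), STMN1, which destabilises microtubules (0.45), and POP4, a subunit of RNase P (0.48). Nearest to STBD1 was DNMT1, the maintenance DNA methyltransferase (0.05), then MYLIP, a ligase that marks the LDL receptor for degradation (0.19), CHAF1B (0.29), POP4 (0.32) and MTMR2, a phosphoinositide phosphatase (0.52). CHAF1B and POP4 were thus near both.

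The 2 receptors lay 0.59 apart on this scale. CCPG1 and STBD1 were at -2.14 and -2.72 with BP5, where STBD1 read 1.02 times the floor, and at -2.14 and -2.05 with BSP-II. With the local background alone subtracted both were at -2.01 with BP5, so the distance and ranks depend on the processing. STBD1 was the 9th nearest gene to CCPG1, and CCPG1 the 6th nearest to STBD1. The distance uses the ratios that chose both genes, and 37 of 2560 genes were lower with both peptides. Their closeness thus follows largely from the choice and is no sign of a shared control. The signals of DNMT1 were 154.3 with BP5, 203.1 with BSP-II and 1424 in the control, low on both peptide arrays as for STBD1.

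**Figure D5:**
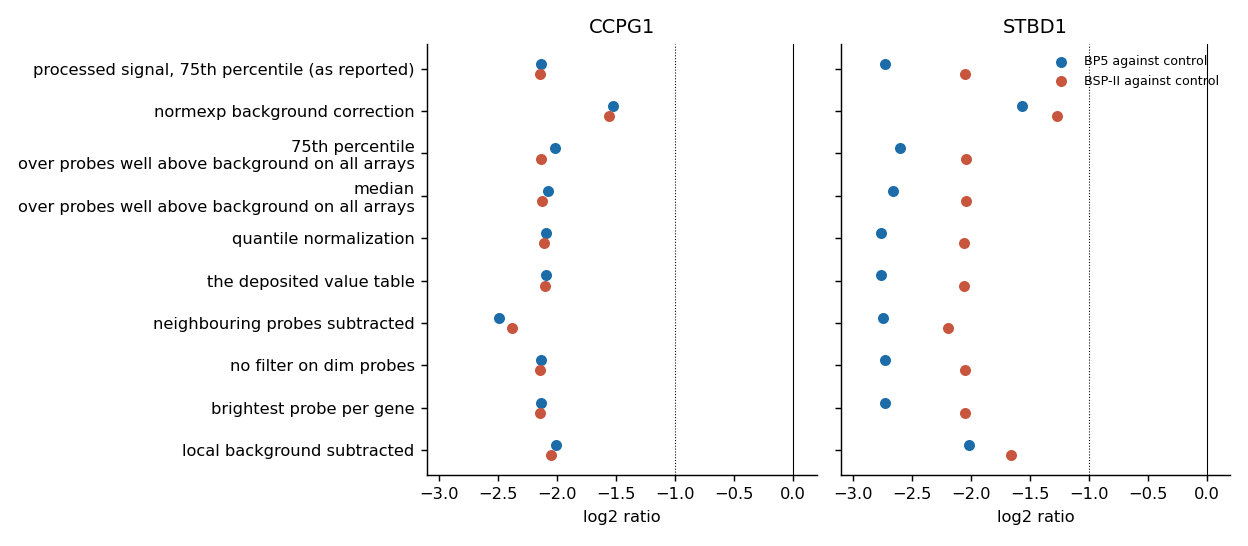
Log2 ratio to the control array of CCPG1 (left) and STBD1 (right), with BP5 (blue) and BSP-II (red), under each way of processing. The dotted line marks 2-fold lower. All points lie below -1, with the smallest decreases under normexp background correction.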

How the data were processed

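RNA of DT40 cells was measured on 3 1-colour arrays, 1 per group, and whether RNA was pooled is not stated. The processed intensity, as deposited, had its background subtracted and was detrended by Agilent Feature Extraction 10.5.1.1, per the file headers and the submitters' processing notes, with no scaling between arrays. Per the file headers, 0 or 1 flags tell for each spot whether it was saturated, an outlier or well above background. A second deposited source, a log2 table by the authors for 20085 probes, correlated at 1.000 with log2 of the processed intensity of each array and had medians of 7.75 on all 3. Its values are not centred per gene, its direction is that of signal, and the sources used here do not say how it was normalized and filtered.

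Control spots (1417) and 153 probes marked as outliers on at least 1 array were left out of ratios. Log2 of the processed signal minus the 75th percentile over non-control probes (183.3 with BP5, 158.5 with BSP-II, 262.6 in the control) was the measure. A gene's ratio was the mean over its unsaturated probes that were well above background on both arrays. Probes were named by unversioned RefSeq accession through the GRCg7b gene table, where 4000 of 5017 matched, and no coordinates are given because the files use galGal3. No sequences were used here. The named genes and lists were chosen with earlier results of these data known. Besides both receptors the text names the 5 nearest genes to each, all measured receptors, and per list the members past 2-fold and the 3 others with the highest control signal. Names outside this rule are said to be so or belong to lists of 5 or fewer, to marker lists or to genes not detected. No test between groups was made. Scaling, ratios, calls and normexp were tested on simulated data. The simulated arrays all kept the control array's well-above-background flags, and only genes above the median control signal were changed. The filter on dim probes and the detection floor were thus not tested in this way. Python 3.11.15, numpy 2.4.6, pandas 2.3.3 and scipy 1.17.1 were used. Normexp was fitted by maximum likelihood to the median spot signal and the local background, since the mean spot signal is not in the files.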

Additional observations from a re-analysis of the deposited data

How the results depend on the processing

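CCPG1 and STBD1 were at least 2-fold lower with both peptides under all 9 alternatives, with log2 ratios from -2.49 to -1.53 for CCPG1 with BP5, -2.38 to -1.56 for CCPG1 with BSP-II, -2.76 to -1.57 for STBD1 with BP5 and -2.19 to -1.27 for STBD1 with BSP-II. The values that moved by more than the scanner error were those of normexp (CCPG1 -1.53 and -1.56, STBD1 -1.57 and -1.27 with BP5 and BSP-II), of subtracting the neighbouring probes (CCPG1 -2.49 and -2.38) and of subtracting the local background alone (STBD1 -2.01 and -1.66), an alternative chosen after seeing the data. Some alternatives could say little. Each gene has 1 probe, well above background on every array, so dropping the filter or taking the brightest probe could not change its ratio. Scaling by detected probes alone, to their percentile or median, shifts all genes of a comparison by the same amount. Quantile normalization and the authors' log2 table gave nearly the same ratios, so they are hardly separate alternatives. With BP5 they put STBD1 at -2.76 and -2.76, and CCPG1 at -2.10 and -2.09. Both genes were chosen for low ratios on these same arrays, so their staying low is no support. Normexp adds an offset of 50, which draws ratios of dim spots toward 0 by construction. PHKB, a brighter gene than STBD1, also moved with BP5 under normexp, from -0.83 to -0.47. The median of all genes with BP5 moved from -0.08 to 0.10. The cause of the moves, those under normexp included, was not tested. The counts of genes at least 2-fold lower with BP5, with BSP-II and with both were 35, 19 and 17 under normexp and 177, 124 and 79 with no filter on dim probes, and 53 were lower with BP5 after subtraction of the neighbouring probes. Those settings left 53.3%, 81.2% and 59.5% of the genes past 2-fold with BP5 on the higher side, and normexp and no filter left 77.4% and 85.7% with BSP-II. Scaling by the percentile over detected probes alone moved the median of all genes with BP5 to 0.04, and CCPG1 and STBD1 relative to that median stayed at -2.05 and -2.64. No paired analysis was possible because each group has 1 array. The STBD1 reading on the BP5 array lay at 1.02 times the detection floor, which limits how far its ratio can be measured.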
